A study of Homo sapiens with 6 samples.

Results

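The ADAM and ADAMTS metalloproteases examined here are 10 genes chosen by name from the 58735 genes of the deposited table: ADAM9, ADAM12, ADAM17, ADAM19, ADAMTS1, ADAMTS4, ADAMTS5, ADAMTS6, ADAMTS7 and ADAMTS12. All 10 were measured in 6 RNA sequencing libraries of LX-2, an established line of human hepatic stellate cells, which in liver make the matrix of scars. In 3 libraries the cells had received siRNA (small interfering RNA) directed at the RNA methyltransferase NSUN2 and then, 48 hours after transfection, TGF-β1 at 5 ng/ml for 24 hours. In the other 3 they had received the NSUN2 siRNA without TGF-β1. Both groups thus carry the siRNA, and TGF-β1 is compared with no TGF-β1 in its presence. Cells without the siRNA were not analysed here. The genotype is labelled wild type throughout, and the harvest time of the cells without TGF-β1 is not labelled. An effect of TGF-β1 and one of time after transfection therefore cannot be told apart from the labels. Replicates are labelled biological, but separate cultures are not mentioned, so p-values measure the spread between these libraries, which may be technical. NAT10 is also named as the siRNA target in the design text of the series, and the sample labels were followed here. In bulk libraries, fewer cells that express a gene and less of its RNA per cell cannot be told apart.

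ADAMs are mostly membrane-anchored proteases that release the outer part of cell-surface proteins, among them growth factors, cytokine receptors and adhesion molecules. ADAMTS proteases are secreted, bind to the matrix through thrombospondin repeats and cut proteoglycans and other matrix proteins. The active members of both families share a catalytic domain that holds a zinc ion, and most are made as inactive precursors cut by furin-type convertases. Some members of each, but not all, are held back by tissue inhibitors of metalloproteinases, of which TIMP3 acts most broadly. Of the ADAMTS members here, ADAMTS1, ADAMTS4 and ADAMTS5 are known for cutting the proteoglycans aggrecan and versican, whereas ADAMTS6, ADAMTS7 and ADAMTS12 belong to other branches of the family.

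The catalytic site that defines both families is shown by the 33 coding bases of its zinc-binding motif, read from GENCODE 29 transcripts (GRCh38) on the coding strand. Capitals mark the 3 histidine codons that hold the zinc ion. ADAM9 is named only.
ADAM12: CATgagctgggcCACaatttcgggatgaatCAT
ADAM17: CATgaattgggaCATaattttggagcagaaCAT
ADAM19: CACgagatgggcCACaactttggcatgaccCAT
ADAMTS1: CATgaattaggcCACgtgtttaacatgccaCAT
ADAMTS4: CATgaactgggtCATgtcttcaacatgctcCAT
ADAMTS5: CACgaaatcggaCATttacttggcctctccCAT
ADAMTS6: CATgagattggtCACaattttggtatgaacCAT
ADAMTS7: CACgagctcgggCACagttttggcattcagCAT
ADAMTS12: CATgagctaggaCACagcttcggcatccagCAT
Between these 9 genes the stretch was identical at 48.5% of bases (ADAMTS5 and ADAM12) to 81.8% (ADAMTS7 and ADAMTS12, and ADAMTS6 with each of ADAM12 and ADAM19). In all 6 ADAMTS genes an intron splits the stretch, whereas in all 4 ADAM genes, ADAM9 included, it lies within exon 11. In ADAM19 it occupies chr5:157505734-157505766 on the minus strand.

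Total counts ran from 25828504 to 29978361 in the TGF-β1 libraries and from 26957170 to 30034762 in the libraries without it. NSUN2 itself stood at 100.5 ± 3.07 CPM (counts scaled to a common library size, with TMM factors) with TGF-β1 and 82.9 ± 1.47 CPM without (SD, n = 3 each). The siRNA target was thus not level between the groups (log2 fold change 0.28, edgeR adjusted p = 1.57e-06). With library totals alone the change was 0.16 (edgeR adjusted p = 0.00314). With no library lacking the siRNA, the extent of the NSUN2 knockdown was not measured here. Mitochondrially encoded genes took 1.999% to 2.12% of counts with TGF-β1 and 2.28% to 2.36% without. Of 14 stellate cell markers, LRAT was at 0 and DES below 1 CPM in both groups. The list summed to 7188 to 7904 CPM with TGF-β1 and 3525 to 3587 CPM without, led by COL1A1 and SPARC. Its genes did not all move this way. ACTA2 was low, at a mean of 4.29 CPM with TGF-β1 and 7.15 CPM without, and HAND2, LHX2 and THY1 were also lower with TGF-β1. The entries of RGS5 stood at 1.79 and 0.490 CPM with TGF-β1, against 1.86 and 0.984 CPM without. COL1A2 was low as well, at 3.18 CPM with TGF-β1 and 1.30 CPM without. Of 8 hepatocyte markers 7 were below 1 CPM, with APOB, CYP3A4 and TTR at 0, and the list summed to 21.3 to 23.2 CPM with TGF-β1 and 23.6 to 27.4 CPM without. Cholangiocyte markers summed to 56.8 to 58.5 CPM with TGF-β1 and 71.0 to 72.7 CPM without, nearly all SOX9, with CFTR at 0. Endothelial markers summed to 35.9 to 40.1 CPM with TGF-β1 and 19.8 to 25.6 CPM without, nearly all TEK, with CLEC4G at 0. Macrophage and leukocyte markers summed to 14.99 to 18.0 CPM with TGF-β1 and 11.8 to 14.8 CPM without, led by CSF1R with TGF-β1 and CD14 without, with CD3E at 0. The part of these lists in the results below was not tested.

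With TGF-β1, 6 of the 10 proteases rose, 1 fell and 3 did not pass the test, after edgeR's quasi-likelihood test with Benjamini-Hochberg adjustment over 17215 tested genes and a threshold of adjusted p under 0.05. ADAM19 rose most, 5.05-fold, followed by ADAMTS5 (2.51-fold), ADAMTS7 (1.80-fold), ADAMTS6 (1.63-fold), ADAM12 (1.32-fold) and ADAMTS1 (1.27-fold). ADAM9, the most abundant member by mean CPM over all libraries, fell by 0.22 on the log2 scale, and ADAM17, ADAMTS4 and ADAMTS12 did not pass. Over all tested genes 20.2% rose and 18.7% fell, 38.9% in either direction. The 8 members with a mean of at least 10 CPM gave 5 higher and 1 lower, where 29.9% of the tested genes at that level rose and 23% fell, 52.9% in either direction. The libraries of the groups did not overlap in normalised CPM for 7 of 10 members, against 47.4% of all tested genes. At a change of at least 2-fold, 2 of the 10 passed, ADAM19 and ADAMTS5, both upward, where 3.11% of tested genes rose and 3.4% fell by that much. By log2 fold change, ADAM19, ADAMTS5 and ADAMTS7 stood at percentiles 99.2, 97.7 and 95.3 of the tested genes, ADAMTS6 at 93.7, ADAM12 at 87.5, ADAMTS1 at 85.5 and ADAM9 at 27.3. By mean CPM, ADAM9, ADAM19, ADAMTS12 and ADAMTS6 all stood above percentile 95, while ADAMTS5 and ADAMTS4 stood at 24.5 and 18.5. The median log2 fold change was 0.46 over the members and -0.01 over all tested genes. When libraries were scaled by their totals alone these medians were 0.34 and -0.13, and ADAM17 counted as a fall besides ADAM9.

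**Figure D1:**
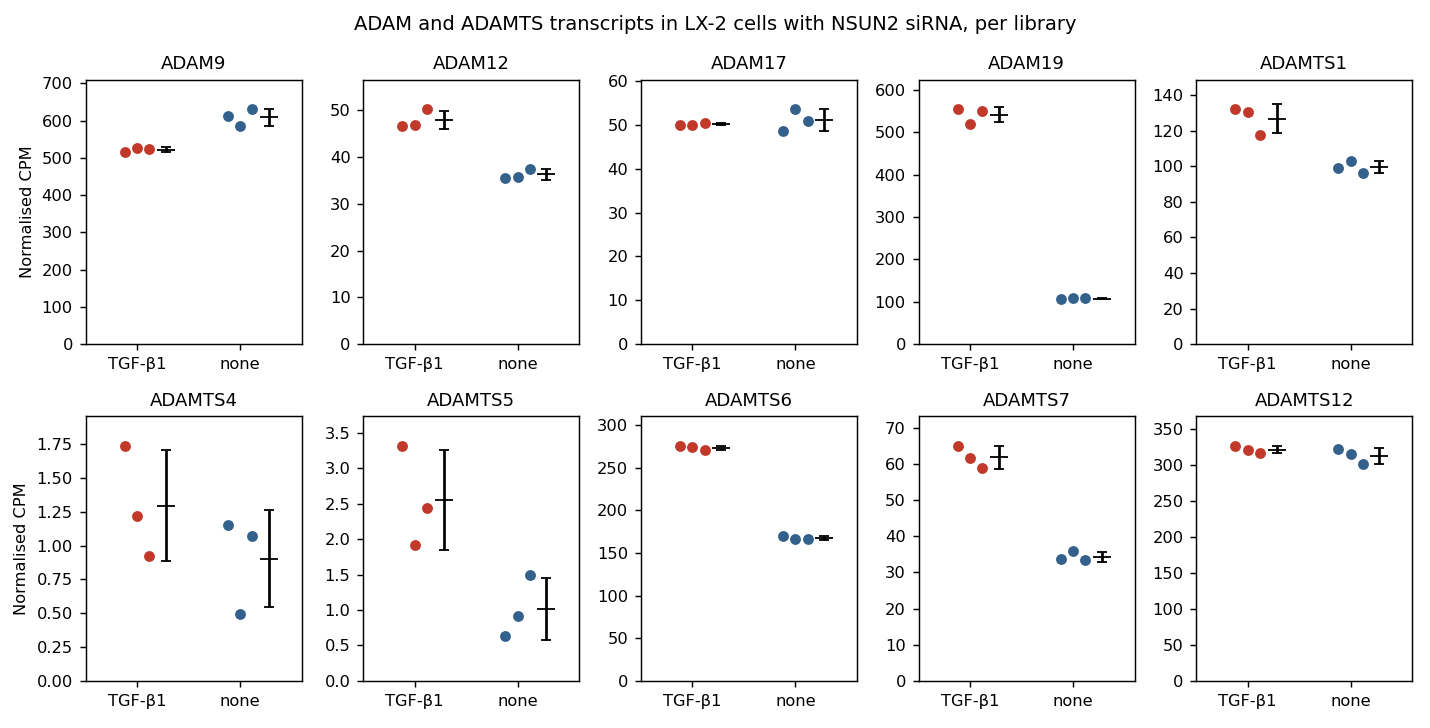
Normalised CPM of each of the 10 proteases (y axis, from 0, each panel with its own scale) in the 3 libraries with TGF-β1 (red) and the 3 without (blue), all with NSUN2 siRNA. Points are libraries and black bars are mean ± SD; ADAM19 is near 541 CPM with TGF-β1 and near 107 CPM without, while the points of ADAMTS12 and ADAM17 overlap between groups.

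**Figure D2:**
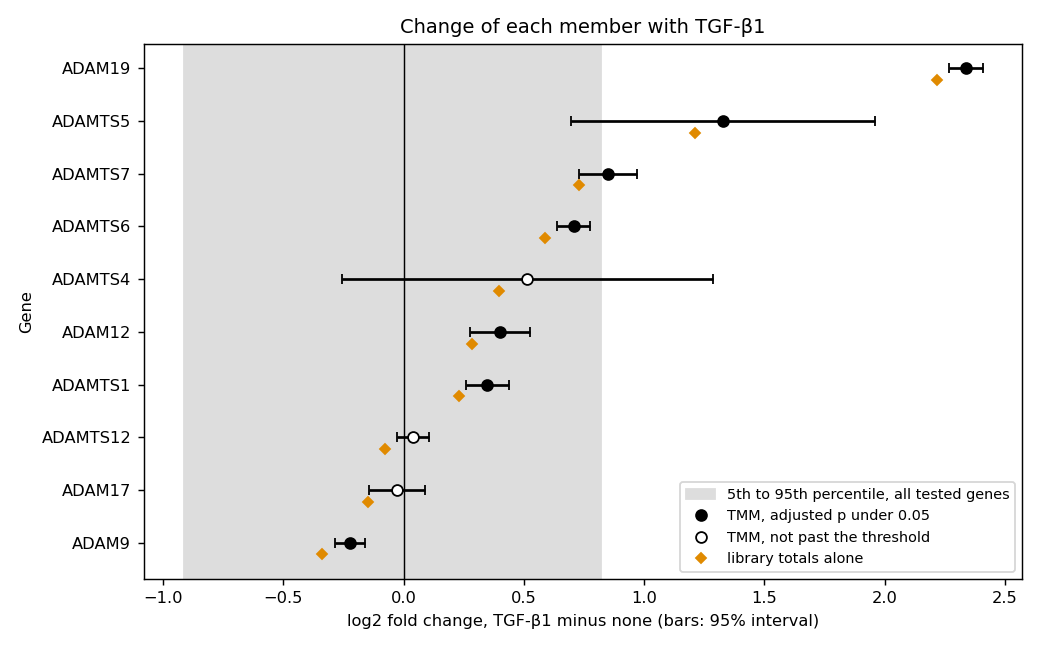
Log2 fold change of each protease, TGF-β1 minus none (x axis), with its 95% interval from the edgeR fit; filled points passed adjusted p under 0.05, and orange diamonds are the values with library totals alone. ADAM19 and ADAMTS5 lie to the right of the grey band, which spans -0.91 to 0.82 and holds the central 90 percent of all tested genes, and ADAMTS7, at 0.85, lies just outside it.

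Among the membrane-anchored members, ADAM19 (meltrin beta, which sheds neuregulin; ENSG00000135074, chromosome 5, 157395534 to 157575775, minus strand, hg38) had 554, 520.0 and 550.3 CPM with TGF-β1, against 105, 108 and 108 CPM without. All 3 TGF-β1 libraries lay far above all 3 others, and the spread within a group was small beside the gap. This came to a log2 fold change of 2.34 ± 0.03 (SE; edgeR adjusted p = 7.66e-40). Its exons overlap those of the opposite-strand gene CYFIP2 over 0.805% of their bases, and CYFIP2 was low beside it, at 5.68 ± 1.05 CPM with TGF-β1 and 9.84 ± 0.860 CPM without (SD, n = 3 each).

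ADAM12 (meltrin alpha, which cuts insulin-like growth factor binding proteins; ENSG00000148848, chromosome 10, 126012381 to 126388455, minus strand) had 46.7, 46.9 and 50.2 CPM with TGF-β1, against 35.6, 35.7 and 37.5 CPM without. The groups did not overlap. The log2 fold change was 0.40 ± 0.06 (SE; edgeR adjusted p = 9.33e-07). ADAM12 has a membrane-anchored and a secreted form, which gene-level counts do not tell apart.

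ADAM9 (meltrin gamma, a broad sheddase; ENSG00000168615, chromosome 8, 38996869 to 39105144, plus strand) moved the other way, with 515, 527 and 525 CPM with TGF-β1, against 612, 585 and 631 CPM without. Every TGF-β1 library lay below every other, for a log2 fold change of -0.22 ± 0.03 (SE; edgeR adjusted p = 9.75e-08). ADAM17 (the sheddase of tumour necrosis factor and of several epidermal growth factor receptor ligands; ENSG00000151694, chromosome 2, 9488486 to 9556732, minus strand) had 49.97, 49.96 and 50.4 CPM with TGF-β1, against 48.7, 53.6 and 50.9 CPM without. The TGF-β1 values fell inside the range of the others. With a log2 fold change of -0.03 and a 95% interval of -0.14 to 0.09 it did not pass (edgeR adjusted p = 0.751); the value was -0.15 with library totals alone (adjusted p = 0.0348). Exons of the opposite-strand genes IAH1 and AC073195.1 overlap 13.6% of the exonic bases of ADAM17, and no source used here says whether strand was used in counting, so their reads cannot be told apart. IAH1 averaged 12.6 ± 1.42 CPM with TGF-β1 and 12.8 ± 0.904 CPM without (SD, n = 3 each), and its change did not pass (adjusted p = 0.914).

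Among the secreted members with aggrecanase activity, ADAMTS1 (ENSG00000154734, chromosome 21, 26835747 to 26845409, minus strand) was the one expressed at a substantial level. It had 132, 131 and 117 CPM with TGF-β1, against 99.2, 103 and 96.2 CPM without. The groups were separate, with the TGF-β1 library of replicate 3 the nearest to the others. ADAMTS1 changed by a log2 fold of 0.35 ± 0.04 (SE; edgeR adjusted p = 1.82e-08).

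ADAMTS5, the main aggrecanase of cartilage in mice (ENSG00000154736, chromosome 21, 26917912 to 26966513, minus strand), was at the low end. It had 82, 55 and 63 counts with TGF-β1, against 20, 28 and 42 without, which is 3.32, 1.92 and 2.43 CPM against 0.640, 0.919 and 1.499 CPM. The lowest TGF-β1 library stood above the highest of the others by a small margin. The log2 fold change was 1.33 ± 0.31 (SE; edgeR adjusted p = 5.87e-04), with a 95% interval of 0.70 to 1.96, and it ran from 1.08 to 1.70 as each library was left out. On log2(FPKM + 1) with no filter on low values the change was 0.20 and did not pass (limma adjusted p = 0.217). ADAMTS4, the other classical aggrecanase (ENSG00000158859, chromosome 1, 161184308 to 161199056, minus strand), had 43, 35 and 24 counts with TGF-β1, against 36, 15 and 30 without. The groups overlapped, and a log2 fold change of 0.51 with a 95% interval of -0.26 to 1.28 did not pass (edgeR adjusted p = 0.312). ADAMTS1 and ADAMTS5, which both rose, lie close together on chromosome 21 and on the same strand.

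ADAMTS6 (a relative of ADAMTS10 linked to microfibrils; ENSG00000049192, chromosome 5, 65148736 to 65481920, minus strand) had 275, 274 and 271 CPM with TGF-β1, against 169.9, 166 and 166 CPM without. The 3 libraries of each group lay within a few CPM of one another, and the groups were far apart. The log2 fold change was 0.71 ± 0.03 (SE; edgeR adjusted p = 2.17e-21).

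ADAMTS7 and ADAMTS12 are closely related and cut cartilage oligomeric matrix protein. ADAMTS7 (ENSG00000136378, chromosome 15, 78759203 to 78811431, minus strand) had 65.0, 61.7 and 58.7 CPM with TGF-β1, against 33.7, 35.8 and 33.3 CPM without. The groups were separate, and the log2 fold change was 0.85 ± 0.06 (SE; edgeR adjusted p = 1.11e-15). ADAMTS7 shares 72.02% of the 5490 bases of the transcript picked for it with the pseudogenes ADAMTS7P3 and ADAMTS7P4 at 95% identity or more. Its counts therefore depend on how reads that match several places were treated, and no source used here states that. ADAMTS7P3 had 10, 4 and 3 counts with TGF-β1, against 5, 0 and 3 without. ADAMTS7P4 had 2, 5 and 0 counts with TGF-β1, against 30, 12 and 17 without, small beside the 1521 to 1768 counts of ADAMTS7 with TGF-β1 and its 934 to 1091 counts without. No other member had a match of this kind over more than 1.82% of its transcript, apart from the overlap of ADAM17 with IAH1.

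ADAMTS12 (ENSG00000151388, chromosome 5, 33523535 to 33892192, minus strand), in contrast, had 326, 321 and 316 CPM with TGF-β1, against 322, 314 and 301 CPM without. The groups overlapped. Its log2 fold change of 0.04 had a 95% interval of -0.03 to 0.11 (edgeR adjusted p = 0.355). It turned to -0.08 with library totals alone (adjusted p = 0.0521) and to -0.0041 with upper-quartile factors (adjusted p = 0.939), and passed in neither.

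Levels of different genes were compared on the deposited FPKM (fragments per kilobase of gene length, scaled by a size for each library). That size, worked back from the FPKM, was not the count total. It lay below the total in each TGF-β1 library (25446700 against 25828504 in replicate 1). In each library without TGF-β1 it lay above the total (32125300 against 30034762 in replicate 1). The gene length is that of all annotated exons merged, 7704 bases for ADAM19 and 6913 for ADAM9. The transcripts picked for them in the sequence comparison have 3312 and 3839 bases. Which transcripts these cells mainly use was not measured. The order of genes below holds for this choice of length. In mean CPM, which uses no length, ADAM19 stood above ADAM9 with TGF-β1 (541.5 and 522.5 CPM). With TGF-β1 the order was ADAM9 (73.5 ± 0.915 FPKM), ADAM19 (68.4 ± 2.43), ADAMTS12 (32.0 ± 0.474), ADAMTS6 (31.0 ± 0.217), ADAMTS1 (17.5 ± 1.09), ADAMTS7 (7.78 ± 0.381), ADAM12 (4.73 ± 0.208), ADAM17 (4.53 ± 0.0289), ADAMTS5 (0.275 ± 0.0758) and ADAMTS4 (0.122 ± 0.0385; SD, n = 3 each). The ranges of neighbours over the 3 libraries did not overlap. Without TGF-β1 the order was ADAM9 (85.5 ± 3.34 FPKM), ADAMTS12 (31.0 ± 1.12), ADAMTS6 (19.0 ± 0.305), ADAMTS1 (13.7 ± 0.468), ADAM19 (13.5 ± 0.161), ADAM17 (4.61 ± 0.210), ADAMTS7 (4.30 ± 0.162), ADAM12 (3.57 ± 0.105), ADAMTS5 (0.109 ± 0.0468) and ADAMTS4 (0.0850 ± 0.0339). There the neighbours ADAMTS1 and ADAM19, ADAM17 and ADAMTS7, and ADAMTS5 and ADAMTS4 overlapped, so their order is not set. On this measure ADAM19 stood at place 2 with TGF-β1 and at place 5 without, where its libraries could not be told from those of ADAMTS1.

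**Figure D3:**
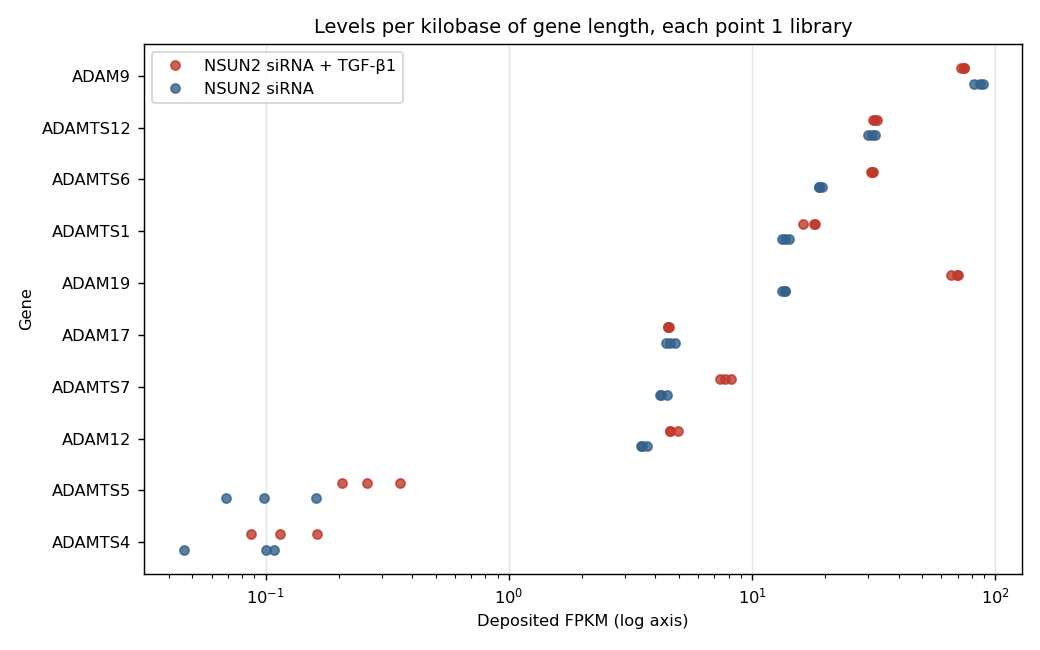
Deposited FPKM of each protease (x axis, log scale) in each library, with TGF-β1 (red, upper row of each gene) and without (blue, lower row). ADAM19 lies near ADAM9 with TGF-β1 and near ADAMTS1 without, while ADAMTS4 and ADAMTS5 stay below 0.4 FPKM in every library.

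Ratios within a library do not depend on how libraries were scaled. The size of a ratio or share does depend on the gene lengths used. The FPKM ratio of ADAM19 to ADAM9 was 0.965, 0.885 and 0.941 with TGF-β1, against 0.155, 0.166 and 0.154 without. ADAM19 supplied 45.2% ± 1.07 of the summed FPKM of the 4 ADAM members with TGF-β1 and 12.6% ± 0.419 without (SD, n = 3 each), and ADAM9 supplied 48.6% ± 1.03 with TGF-β1 and 79.8% ± 0.757 without. The share of ADAM17 was 2.999% ± 0.0299 with TGF-β1 and 4.31% ± 0.300 without, although its own level did not pass the test. Among the 6 ADAMTS members, ADAMTS12 supplied 36.1% ± 0.389 with TGF-β1 and 45.5% ± 0.588 without, and ADAMTS6 supplied 35.04% ± 0.620 with TGF-β1 and 27.8% ± 0.553 without. The share of ADAMTS7 was 8.77% ± 0.224 with TGF-β1 and 6.32% ± 0.212 without, and that of ADAMTS1 was 19.7% ± 0.781 with TGF-β1 and 20.1% ± 0.469 without. The ratio of ADAMTS6 to ADAMTS12 was 0.963, 0.973 and 0.978 with TGF-β1, against 0.603, 0.602 and 0.631 without. The ratio of ADAMTS7 to ADAMTS12 was 0.252, 0.243 and 0.235 with TGF-β1, against 0.132, 0.144 and 0.140 without. In each of the 6 ratios computed the groups were separate; the two-sided exact permutation test gave p = 0.1, the smallest that 3 libraries against 3 allow.

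**Figure D4:**
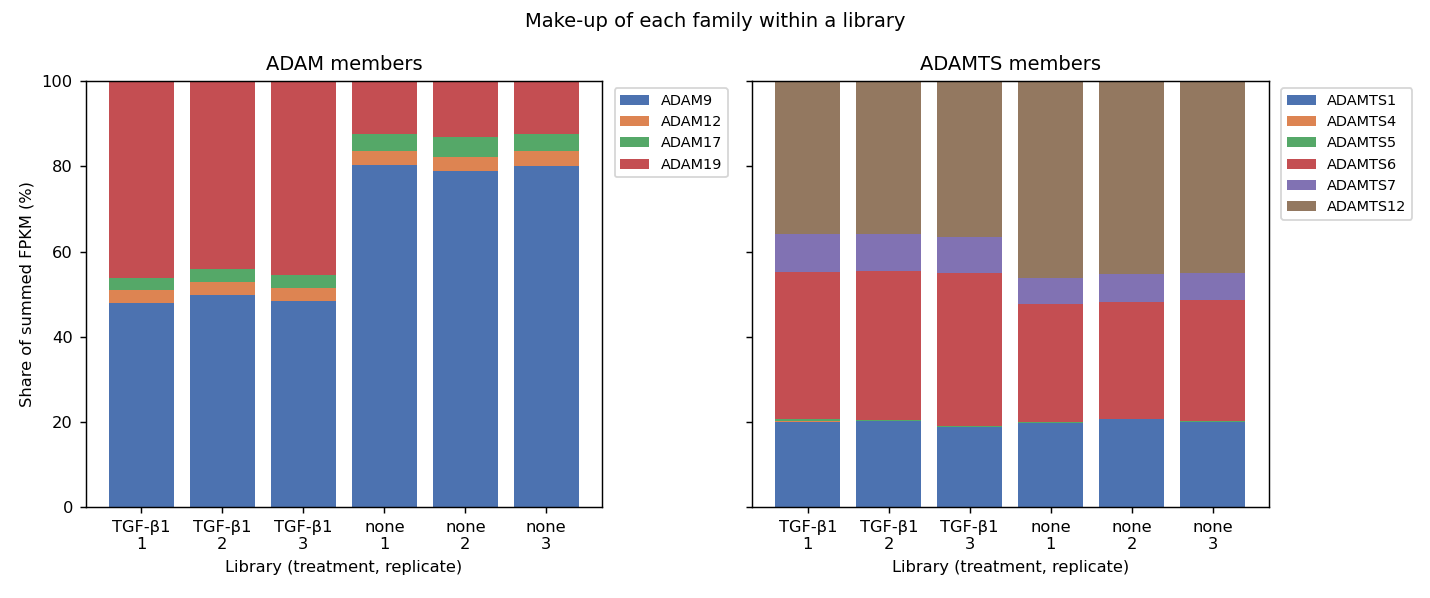
Share of the summed FPKM (y axis, percent) taken by each of the 4 ADAM members (left panel) and the 6 ADAMTS members (right panel) in each library, TGF-β1 libraries first. ADAM19 takes 44.1% to 46.2% of the ADAM sum in the TGF-β1 libraries and 12.3% to 13.1% in the others, and the band of ADAMTS6 is wider, and that of ADAMTS12 narrower, in the TGF-β1 libraries.

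RefSeq promoter sequences (GRCh38.p14) were at hand for 6 of the 10 members: ADAMTS6, ADAMTS7, ADAMTS12, ADAM12, ADAM17 and ADAM19. The 250 bases before the annotated start are shown for ADAM19 and ADAMTS6, which rose and whose RefSeq start coincides with the end of the gene as given above. For ADAMTS12 and ADAM17 the RefSeq start lies inside the gene as given, so that part or all of the window is within it. Capitals mark matches, on either strand, to motifs of factors known to act downstream of TGF-β: TGANTCA (AP-1), GTCTAGAC and CAGACA (SMAD proteins) and GGAATG (TEAD factors), and to the GC box GGGCGG.
ADAM19, chr5:157575776-157576025, minus strand: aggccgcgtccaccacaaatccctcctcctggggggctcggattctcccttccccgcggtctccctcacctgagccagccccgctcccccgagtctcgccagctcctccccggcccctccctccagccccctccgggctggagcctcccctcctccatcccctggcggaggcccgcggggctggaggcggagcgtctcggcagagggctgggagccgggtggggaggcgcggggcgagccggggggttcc
ADAMTS6, chr5:65481921-65482170, minus strand: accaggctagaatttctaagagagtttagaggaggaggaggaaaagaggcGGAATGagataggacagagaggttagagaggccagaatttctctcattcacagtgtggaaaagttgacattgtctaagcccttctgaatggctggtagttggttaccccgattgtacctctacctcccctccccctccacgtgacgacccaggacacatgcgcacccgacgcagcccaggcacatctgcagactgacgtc
In the window of ADAM19, the member that rose most, none of the 5 motifs was found. TGANTCA was found in 1 of the 6 windows, that of ADAMTS12, and in the same window of 6.57% of all 35116 promoters of the table. GGAATG was in 3 of 6 (ADAMTS6, ADAMTS12 and ADAM17; 11.9% of all promoters) and GGGCGG in 4 of 6 (ADAMTS7, ADAMTS12, ADAM12 and ADAM17; 42.6%), with some of the matches in ADAMTS7 overlapping one another. Neither SMAD motif was found in any of the 6, against 0.182% of all promoters for GTCTAGAC and 13.6% for CAGACA. These matches are descriptions of letters in a short window and say nothing of binding.

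The remaining members of both families, their regulators and their known substrates were read from lists that do not contain the 10 genes. The counts of each list stand beside shares of 20.2% higher and 18.7% lower over all tested genes. At a mean of at least 10 CPM these shares are 29.9% and 23%, 52.9% in either direction. Whether any list differs from these shares was not tested. Of 17 other ADAMs 8 were tested, and 4 fell and 1 rose (median log2 fold change -0.44; with library totals alone 5 fell and the rise of ADAM10 was lost). ADAM8, a sheddase best known from leukocytes, fell to 6.99, 7.05 and 6.72 CPM with TGF-β1, against 12.7, 14.5 and 12.6 CPM without (-0.94 on the log2 scale). ADAM15 had a value of -0.43, and ADAM11 and ADAM22, which lack protease activity, had -0.70 and -0.51. ADAM10, the closest relative of ADAM17 and the main sheddase of Notch receptors, was the riser, at 228.0 ± 4.76 CPM with TGF-β1 and 203 ± 3.93 CPM without (SD, n = 3 each; log2 fold change 0.17, and 0.05 with an adjusted p of 0.259 with library totals alone).

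Of 13 other ADAMTS proteases 9 were tested, and 5 rose and 1 fell (median 0.55; 4 and 2 with library totals alone). ADAMTS16 had 85.7, 84.9 and 88.9 CPM with TGF-β1, against 45.0, 42.7 and 47.5 CPM without, a log2 fold change of 0.94. ADAMTS15, which cuts versican and aggrecan, rose by 1.19, and the procollagen N-proteinases ADAMTS2 and ADAMTS14 rose by 1.09 and 0.75, while the procollagen N-proteinase ADAMTS3 fell by 0.69. ADAMTS10 rose by 0.55, the weakest of the 5 calls (edgeR adjusted p = 0.0344), and did not pass with library totals alone (adjusted p = 0.0971). The number of the list that rose was also 4 with upper-quartile factors, with no filter, with the DESeq2 Wald test, with the replicate block, and without TGF-β1 replicate 1, TGF-β1 replicate 2, siRNA-only replicate 1 or siRNA-only replicate 2. On log2 FPKM (limma, 3 settings) 2 of the list rose and the fall of ADAMTS3 did not pass. Without TGF-β1 replicate 1, 2 of the list fell. Of 7 ADAMTS-like proteins, which lack the protease domain, 5 were tested: 3 fell and 2 did not pass (median -0.31). ADAMTSL4, THSD4 and ADAMTSL1 had values of -0.90, -0.72 and -0.31.

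Among the 7 inhibitors and clearance genes, TIMP3 rose most, to 169, 147 and 147 CPM with TGF-β1, against 49.6, 46.9 and 50.9 CPM without. Its log2 fold change was 1.65 ± 0.05 (SE; edgeR adjusted p = 3.93e-26). TIMP1 rose by 0.44 and TIMP2 by 0.36, and LRP1, the endocytic receptor that removes ADAMTS proteases from the cell surface, fell by 0.24, so that 3 of 5 tested genes rose and 1 fell (median 0.36). A2M and TIMP4 had no counts in any library and RECK did not pass the test.

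Of 17 genes of maturation, trafficking and adaptors 16 were tested, and 7 rose and 3 fell (median 0.02; 5 and 5 with library totals alone). The convertase gene FURIN had 440, 419 and 427 CPM with TGF-β1, against 197, 200 and 203 CPM without, a log2 fold change of 1.10. TSPAN15, a tetraspanin partner of ADAM10, rose by 1.22, and SH3PXD2A, an invadopodium scaffold that binds ADAM12, ADAM15 and ADAM19, rose by 1.13. The iRhom genes, whose products carry ADAM17 to the cell surface, moved apart, with RHBDF2 at 0.28 and RHBDF1 at -0.39. The other tetraspanins of the list did not all move with TSPAN15. TSPAN10 fell by 0.98 from a low level and TSPAN5 fell by 0.14. TSPAN14 rose by 0.15, and TSPAN17 and TSPAN33 did not pass, these also named after their values were seen.

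Of 15 matrix substrates of ADAMTS proteases 9 were tested, and 5 rose and 1 fell (median 0.18; 4 and 2 with library totals alone). VCAN, which encodes versican, had 428, 410.1 and 401 CPM with TGF-β1, against 89.2, 91.7 and 93.7 CPM without, a log2 fold change of 2.17. FN1 rose by 2.77 and THBS1 by 1.95. The brain proteoglycan gene BCAN had a mean of 1.14 CPM with TGF-β1 and 2.46 CPM without (log2 fold change -1.12), and ACAN, which encodes aggrecan, stood at 0.419 CPM with TGF-β1 and 0.469 CPM without and did not pass.

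Of 25 cell-surface and growth factor substrates of ADAMs 22 were tested, and 12 fell and 5 rose (median -0.21; 15 and 5 with library totals alone). Among the ligands of the epidermal growth factor receptor, EREG had 12, 4 and 0 counts with TGF-β1, against 119, 91 and 66 without, and EPGN had 7, 4 and 4 counts with TGF-β1, against 71, 87 and 66 without. These gave log2 fold changes of -3.88 and -3.69, while AREG had -2.55 (named after its values were seen). HBEGF rose by 0.75, and TGFA, likewise named afterwards, was at -0.27 and did not pass (edgeR adjusted p = 0.501). The Notch ligand JAG1 had the largest rise of the list, 3.83, and the adhesion molecule VCAM1 had -2.96. The neuregulin gene NRG1, likewise named afterwards, stood at 32.5 ± 1.59 CPM with TGF-β1 and 51.8 ± 4.44 CPM without (SD, n = 3 each). Its log2 fold change was -0.67 (edgeR adjusted p = 2.69e-11). The insulin-like growth factor binding proteins cut by ADAM12 also split, with IGFBP5 higher by 1.22 and IGFBP3, also named after its values were seen, at -1.02.

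**Figure D5:**
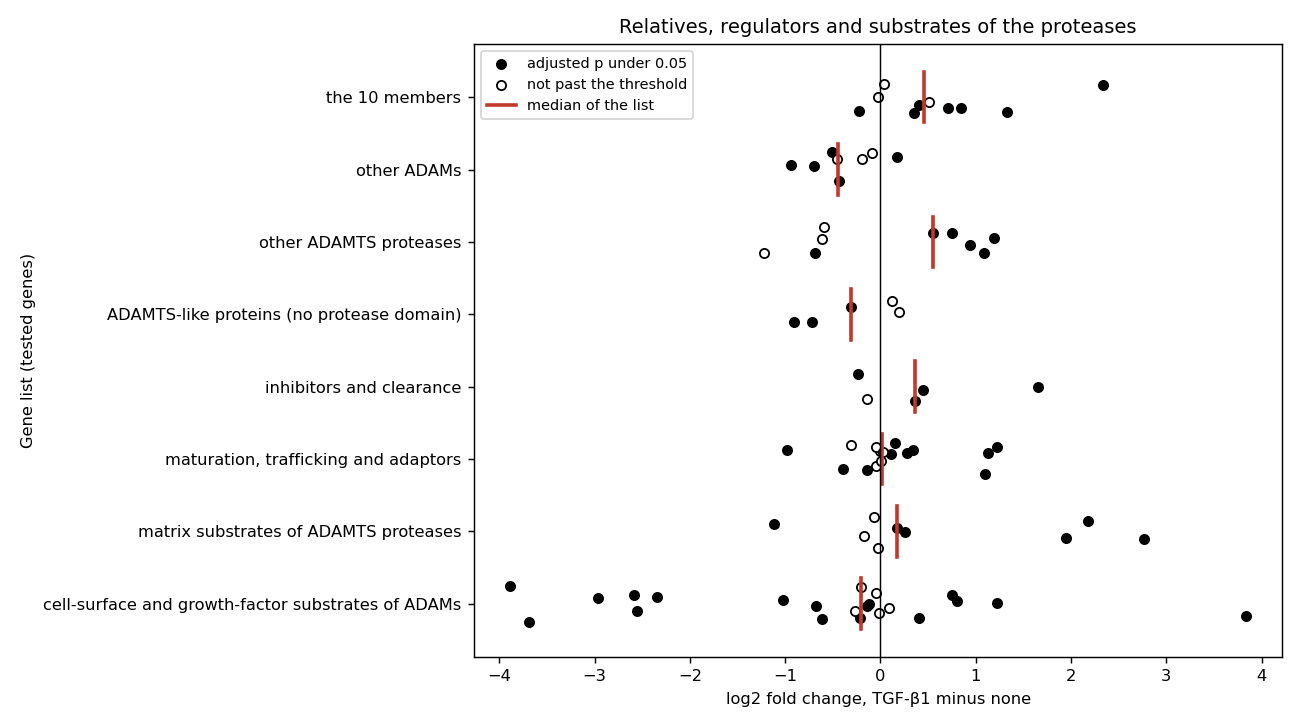
Log2 fold change, TGF-β1 minus none (x axis), of every tested gene in the 10 members and the 7 related lists (rows); filled points passed adjusted p under 0.05 and red lines are list medians. The medians are 0.55 for the other ADAMTS proteases and -0.44 for the other ADAMs, and the substrates of ADAMs spread most widely.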

How the data were processed

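RNA sequencing of 6 LX-2 libraries was analysed in 2 groups of 3, grouped by the sample labels. The deposited count table holds raw counts, 1 whole number per gene and library; the FPKM values deposited by the authors were, within each library, proportional to count over gene length. HISAT2 2.2.1, fastp and the build hg38 are named, per the submitters' processing notes; how genes were counted, with or without strand, and how multiply mapped reads were treated is not stated there. Each of these files has 6 further per-sample columns that matched no sample and were not used. All 58735 gene identifiers matched GENCODE 29 in start, end and strand. Totals were 25828504 to 30034762 counts per library.

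Counts were tested with edgeR 4.0.16 (filterByExpr at its defaults, minimum count 10; TMM; robust glmQLFit and glmQLFTest; group as the only term), two-sided with Benjamini-Hochberg adjustment over 17215 genes. The SE was obtained from the log2 fold change and F (their ratio, with F under the root). FPKM was tested with limma 3.58.1 as an alternative, and DESeq2 1.42.0 was another. Transcripts were compared with BLAST 2.17.0 (at least 95% identity over at least 75 bases). For each member 1 protein-coding GENCODE transcript was picked, by its annotation as principal form and then by coding length. Other alternatives were DESeq2 size factors, upper-quartile factors, library totals alone, other filters, limma-voom, a non-robust fit, a replicate block and leaving out each library. The scripts were tested on simulated counts. Named were the 10 members and, from each list, up to 4 called genes with the largest change at a mean of at least 1 CPM, or the 2 most abundant where none was called, any gene in a count of 5 or fewer, plus TIMP3, FURIN, RHBDF2, ADAM10, VCAN and NSUN2. The members and lists were chosen with earlier results of these data known, so they are not independent evidence.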

Additional observations from a re-analysis of the deposited data

How the results depend on the processing

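Results were recomputed under 18 alternatives, except that ADAMTS4 and ADAMTS5 had 16, since a mean FPKM of at least 0.5 removed both. Of 176 member values, 171 kept their direction and side of the threshold. ADAMTS5 did not pass on log2(FPKM + 1) with no filter (0.20), where the pseudocount damps low values. ADAM17 passed with library totals alone (-0.15), and across the fits leaving out each library it ran from -0.064 to 0.0045, the positive value without the siRNA-only replicate 2. ADAMTS12 turned negative with upper-quartile factors (-0.0041) and with library totals alone (-0.078). The count of members that rose was 5 or 6 under every alternative, 5 on FPKM, where ADAMTS5 was removed or did not pass; the count that fell was 1, except 2 with library totals alone. Over all genes, library totals alone gave 2019 higher and 5354 lower genes in place of 3471 and 3226, so that 27.4% of calls were higher against 51.8%, and moved the median of all genes to -0.13. On log2(FPKM + 1) with no filter, 1881 were lower. The FPKM are not scaled by library totals, so the FPKM alternatives do not repeat that setting. The median of all genes was -0.0037 on log2(FPKM + 1) with no filter and 0.0068 with the filter on mean FPKM. Of 252 counts over the related lists, 234 stayed within 1.5 times. Same-numbered libraries showed no shared deviation (correlations of -0.0049, 0.011 and -0.0091). With 3 libraries per group and counting noise this cannot decide whether equal numbers share a culture or batch. The replicate block gave 3431 higher and 3182 lower genes and 6 and 1 members. ADAMTS4 and ADAMTS5 are limited by depth, with 15 to 82 counts per library.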
